A study of Mus musculus with 3 samples.

Results

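Dividing cells of the regenerating mouse sciatic nerve were compared between the day 21 bridge and the day 7 bridge, the bridge being the tissue that forms across a nerve injury. The cells were chosen by the authors' own annotation, as all cells given the class MES_DIV, and numbered 119 at day 21 and 206 at day 7, 325 in all of the 5891 annotated cells of these libraries and of 7234 annotated cells in the series. Both groups carried the R26-TomatoLSL reporter switched on by Pdgfrb-cre/ERT2, an inducible Cre made in cells that use the Pdgfrb gene, and TdTomato-positive cells were sorted before droplet single-cell RNA sequencing. Nerves were pooled, so the labels tie no cell to an animal, and neither the animals' age nor the kind of injury is given in the labels. Each group was 1 library, so there was no replicate check and no test was made. Every interval below is a 95% interval that covers counting error only.

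The Pdgfrb gene encodes a receptor for platelet-derived growth factor that is made by pericytes, by vascular smooth muscle and by fibroblasts of the nerve sheaths. After a cut, such cells enter the gap, divide and lay down matrix while new vessels and Schwann cells, the glia that wrap axons, grow across it. A dividing cell copies its DNA in S phase, when replication enzymes and histones are made, and then passes through G2 and mitosis, when mitotic kinases, cyclins and kinesins are made. These programmes are shared by all cell types, so an annotated class of dividing cells can hold cells of several types.

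The dividing class held 1482121 UMIs (unique molecular identifiers, each counting 1 captured RNA molecule) at day 21 and 5174582 at day 7. The median cell had 11429 UMIs at day 21, with a range of 2141 to 32823, and 24149.5 at day 7, with a range of 2101 to 58510. Because of this gap in depth, shares of cells are also given after each cell was thinned at random to 2000 UMIs. Levels are UMIs summed over the cells named and given as CPM, in which those cells' UMIs are scaled to the same total in each library. Ratios of CPM are day 21 over day 7 throughout. Mitochondrial transcripts took 1.73% of UMIs at day 21 and 0.929% at day 7, and cytosolic ribosomal protein genes took 13.5% and 17.4% in that order. The bridge libraries shared 58 barcodes, none of them (0) in the dividing class of both.

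The dividing class was a smaller share of the day 21 library. It made up 119 of 4111 annotated cells at day 21, or 2.89% (2.40 to 3.45), and 206 of 1780 at day 7, or 11.6% (10.1 to 13.2). In intact nerve it was 7 of 1343 cells, or 0.521% (0.210 to 1.07). Over all barcodes of a library, with or without a class, the shares were 1.56% at day 21 and 4.22% at day 7. The sort and the authors' cell filter stand between these shares and the tissue.

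The class was not made of mesenchymal cells alone, and its make-up differed between the libraries. Cells with UMIs of at least 4 of 11 Schwann cell markers were 58 of 119 at day 21, or 48.7% (39.5 to 58.1), and 32 of 206 at day 7, or 15.5% (10.9 to 21.2). Thinned to 2000 UMIs, the shares were 25.2% at day 21 and 8.25% at day 7. The same count in non-dividing epineurial-class cells (MES_EPI), which should lack these genes, gave 2.14% at day 21 and 1.33% at day 7, at median depths of 9666 and 19883.5 UMIs. With at least 6 markers the dividing cells gave 42.9% at day 21 and 13.6% at day 7. Cells with at least 4 of 10 pericyte markers were 20 at day 21, or 16.8% (10.6 to 24.8), and 37 at day 7, or 18.0% (13.0 to 23.9). Epineurial-class cells passed that pericyte count in 2.63% at day 21 and 8.88% at day 7, and with at least 6 markers in 0 of 1027 cells at day 21 and 6 of 676 at day 7. The 0 allows a share of up to 0.292%, with 3 cells taken as the limit of a count of 0, here and below. The dividing cells gave 12.6% and 14.1% with at least 6.

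Every dividing cell was placed in 1 of 5 subsets that do not overlap. At day 21, 50 cells (42.0%) carried Schwann markers, 12 (10.1%) carried markers of mural cells, meaning pericytes or vascular smooth muscle, and 8 (6.72%) carried both. Another 1 cell carried endothelial, myeloid or lymphocyte markers without passing the Schwann or mural counts. The remaining 48 (40.3%) passed none of these counts. At day 7 the subsets held 30 (14.6%), 35 (16.99%), 2 (0.971%), 5 (2.43%) and 134 (65.05%) cells in the same order. Of the 7 dividing cells of intact nerve, 5 carried mural markers and 2 were remaining cells. Schwann-marker cells had a median of 10729.5 UMIs against 12524.5 in the remaining cells of day 21, and 19466.5 against 26336.5 at day 7.

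**Figure D1:**
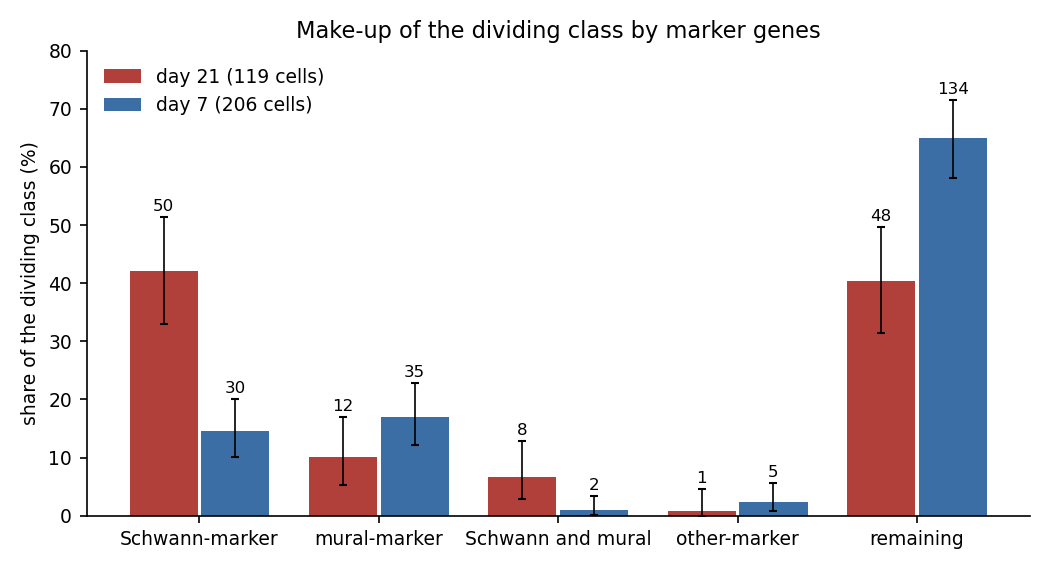
Bars give the share of the dividing class, in percent, that fell in each marker subset at day 21 (left bar) and day 7 (right bar), with exact 95% intervals and the number of cells above. Schwann-marker cells were 50 of 119 at day 21 and 30 of 206 at day 7, while remaining cells were 48 and 134.

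Single markers followed these subsets, and those on the lists helped to choose them. Sox10, the transcription factor that defines Schwann cells, had a UMI in 42 of 50 Schwann-marker cells at day 21 and in 28 of 30 at day 7. It had none in the 48 remaining cells of day 21, which allows a share of up to 6.25%, and 1 of 134 at day 7 had a UMI. Decorin (Dcn), a proteoglycan gene of fibroblasts that was on neither marker list, ran the other way from Sox10. Thinned to 2000 UMIs, it was found in 20% of Schwann-marker cells at day 21 and 3.33% at day 7, against 97.9% and 97.8% of remaining cells. Mural-marker cells, thinned likewise, had Dcn in 83.3% at day 21 and 48.6% at day 7. Most mural-marker cells of day 21 thus carried this fibroblast gene too. Rgs5, a pericyte gene (chr1:169655501-169695813, GRCm38), was found in 11 of 12 mural-marker cells at day 21 and 34 of 35 at day 7, and in 4.17% and 8.96% of remaining cells.

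**Figure D2:**
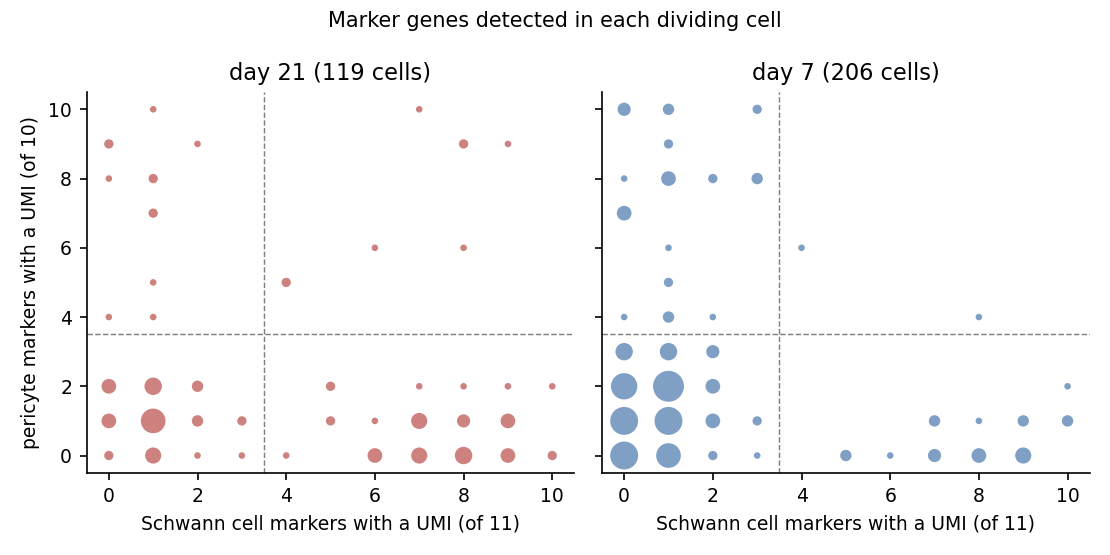
Each circle is a combination of the number of Schwann cell markers (horizontal axis) and pericyte markers (vertical axis) with a UMI in a dividing cell, with area in proportion to the number of cells, at day 21 (left) and day 7 (right). Dashed lines stand at the minimum of 4 markers, and 58 cells of day 21 and 32 of day 7 lie to the right of it.

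Schwann genes were higher in the summed class at day 21. Mbp, which encodes myelin basic protein, had 162 CPM at day 21 and 16.6 CPM at day 7, a log2 ratio of 3.28 (2.92 to 3.66). Sox10 had 88.4 CPM at day 21 and 23.0 CPM at day 7, and Erbb3, the neuregulin receptor of Schwann cells, had 89.7 and 18.9 CPM in that order. Of 10 Schwann markers with a mean of at least 10 CPM over the libraries, 9 were over 2-fold higher at day 21, where 517 of 8391 genes tested (6.16%) were. Their median log2 ratio was 2.13, and the exception was S100b, with 36.4 CPM at day 21 and 41.2 CPM at day 7. Non-dividing cells gave these 10 markers a median of 1.41, with 7 over 2-fold higher, where 5.41% of all genes were. A rise was thus seen in non-dividing cells too. The remaining cells gave 1.03, with 5 over 2-fold higher and 1 lower, where 7.32% and 4.31% of all genes were. Having fewer than 4 of these markers helped to choose the remaining cells, so their values here are a description only. Schwann-marker cells held all of the Sox10 UMIs (100%) and 43.9% of all UMIs of the class at day 21, where these and later shares of UMIs also count the 8 cells with both marker sets. Fewer such cells and less RNA per cell cannot be told apart in a summed level.

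Levels within the Schwann-marker cells are given as a description only for the markers on the list, since carrying at least 4 of them chose the cells. Sox10 had 214 CPM there at day 21 and 191 CPM at day 7, and Foxd3, a neural crest factor, had 183 and 212 CPM. The median log2 ratio of the 10 markers within these cells was 0.22. Mbp stood above that median, with 357 CPM in day 21 Schwann-marker cells and 124 CPM in those of day 7, a log2 ratio of 1.52 (1.13 to 1.92). Ednrb, the endothelin B receptor, which was not on the list (chr14:103814625-103844402), had 515 CPM at day 21 and 149 CPM at day 7 in these cells.

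Cells with mural markers carried fewer cell cycle transcripts, most of all at day 21. Of the 19 dividing cells of day 21 without a UMI of Mki67, Top2a or Cdk1, 16 carried mural markers. All 8 cells with both Schwann and mural markers lacked these 3 genes, and so did 8 of the 12 cells with mural markers alone. At day 7, 10 cells lacked all 3 genes, 8 of them among the 37 with mural markers. That is 80% (56.3 to 94.3) of the cells with mural markers at day 21 and 21.6% (9.83 to 38.2) at day 7. No Schwann-marker cell lacked all 3 genes, 0 of 50 at day 21 and 0 of 30 at day 7, which allows shares of up to 6% and 10%. The 12 mural-marker cells of day 21 had a median of 13805 UMIs, above that of the class, and the 8 cells with both marker sets had 8550.5.

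G2 and mitosis genes, summed over a list of 57, gave the same picture. At day 21 the list took 23716 CPM in Schwann-marker cells, 19296 CPM in remaining cells, 4978 CPM in mural-marker cells and 1944 CPM in cells with both marker sets. At day 7 the levels were 21031, 14891, 12646 and 2783 CPM in the same order. Non-dividing cells had 1167 CPM at day 21 and 1432 CPM at day 7. Per cell thinned to 2000 UMIs, mural-marker cells had a median of 3 UMIs of the list at day 21 and 19 at day 7. Remaining cells had medians of 35.5 and 28 UMIs, and Schwann-marker cells 45 and 42.

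**Figure D3:**
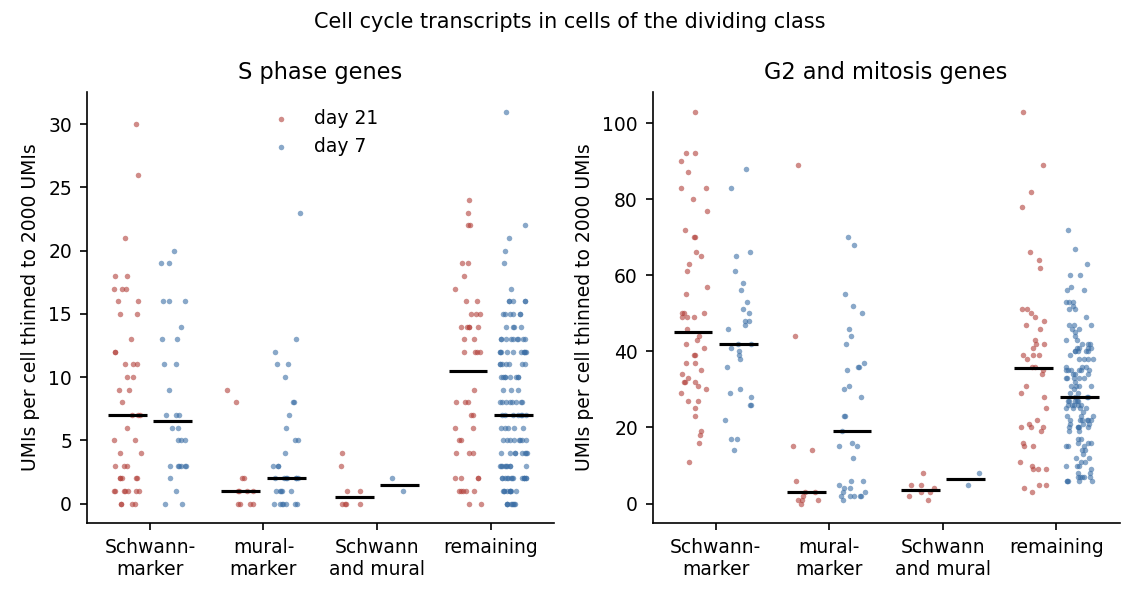
Each point is a dividing cell thinned to 2000 UMIs, with its UMIs of 40 S phase genes (left panel) or 57 G2 and mitosis genes (right panel), at day 21 (left of each pair) and day 7 (right of each pair), with bars at medians. The median of G2 and mitosis UMIs was 3 in the 12 mural-marker cells of day 21 and 19 in the 35 of day 7.

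Over the whole class the division programme itself was close between the days. The authors annotated this class as dividing, so levels of division genes in it, here and below, are a description only. The 40 S phase and replication genes summed to 4116 CPM at day 21 and 3682 CPM at day 7, and the 57 G2 and mitosis genes to 18722 and 15145 CPM. Replication-dependent histone genes, which make the histones of newly copied DNA, summed to 12153 CPM at day 21 and 12234 CPM at day 7. The median log2 ratio was 0.32 over the S phase genes and 0.30 over the G2 and mitosis genes, beside 0.14 over all 8391 genes tested. Trimmed-mean scaling moved all ratios by -0.18 and median-of-ratios scaling by -0.13, so both lists stood about as far above the median of all genes under each. The histone median was 0.02 and turned to -0.16 and -0.11 under those scalings, so it has no firm direction.

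Mki67, a gene of cycling nuclei (chr7:135689784-135716361), had 419 CPM at day 21 and 306 CPM at day 7. It was found in 45.4% of dividing cells at day 21 and 41.7% at day 7 when thinned, against 0.200% and 0.889% of non-dividing cells. At full depth the shares were 75.6% and 85.0%, the opposite order. Top2a, the topoisomerase that untangles copied DNA (chr11:98992943-99024189), had 699 CPM at day 21 and 516 CPM at day 7. Cdc20, which activates the anaphase-promoting complex (chr4:118432901-118437352), had 273 CPM at day 21 and 139.9 CPM at day 7, a log2 ratio of 0.97 (0.79 to 1.14). Ckap2, a spindle microtubule gene, had 215 and 108 CPM in that order. Of the 40 S phase genes 1 was over 2-fold higher at day 21, Ung, an enzyme that removes uracil from DNA, with 27.7 CPM at day 21 and 12.4 CPM at day 7. Of the 57 G2 and mitosis genes 0 passed 2-fold in either direction, beside 9.21% of all genes. In the remaining cells alone 2 of the 57 did, both higher, where 7.32% of all genes were. Cdc20 had 284 CPM at day 21 and 120.2 CPM at day 7 in those cells. The median of the 57 was 0.46 there and 0.18 in Schwann-marker cells. Mural-marker cells went the other way, with a median of -1.40 and 42 of the 57 over 2-fold lower. There 9.27% of all genes were lower. The whole-class values sum over these subsets.

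Mitotic genes are known to share promoter elements, of which the cell cycle genes homology region (CHR, letters TTTGAA) is bound by repressor and activator complexes of the cycle. The stretches shown are the 120 bases before the RefSeq start of 4 mitotic genes of the class, on GRCm38.p6, all 4 on the minus strand. Each is written 5′ to 3′ in the gene's direction, with capitals marking TTTGAA on either strand (TTCAAA where it lies on the other).
Cdc20, chr4:118437344-118437463: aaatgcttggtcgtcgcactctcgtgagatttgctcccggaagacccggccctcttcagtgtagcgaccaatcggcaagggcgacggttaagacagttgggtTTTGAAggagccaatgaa
Cdk1, chr10:69352913-69353032: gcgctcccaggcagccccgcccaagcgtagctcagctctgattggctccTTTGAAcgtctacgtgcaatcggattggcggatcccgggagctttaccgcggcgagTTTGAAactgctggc
Mki67, chr7:135716380-135716499: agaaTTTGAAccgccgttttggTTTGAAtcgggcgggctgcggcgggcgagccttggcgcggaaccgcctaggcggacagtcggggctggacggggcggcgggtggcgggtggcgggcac
Top2a, chr11:99024190-99024309: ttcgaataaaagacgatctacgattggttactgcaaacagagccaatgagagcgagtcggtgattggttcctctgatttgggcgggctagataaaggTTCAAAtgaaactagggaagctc
The CHR letters begin 18 bases before the start of Cdc20, 15 and 71 bases before that of Cdk1, 98 and 116 bases before that of Mki67, and 23 bases before that of Top2a. Of the 57 listed genes 49 were matched in the RefSeq table, and 19 of these (38.8%) held the letters within 250 bases before a start, against 18.3% of all 27025 genes in the table. CCAAT, on either strand, was held by 36 of the 49 (73.5%) and by 37.5% of all genes. A match is a run of letters and does not show binding.

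G1 genes, which set whether a cell enters the cycle, had a median log2 ratio of 0.59 over 26 tested, with 5 over 2-fold higher and 1 over 2-fold lower, where 6.16% and 3.05% of all genes were. In the remaining cells 3 were over 2-fold higher and 3 lower, where 7.32% and 4.31% of all genes were. Ccnd1, the cyclin that drives G1, had 234 CPM at day 21 and 94.9 CPM at day 7, and in the remaining cells alone it had 192 and 66.8 CPM. Cdkn1a, the p21 brake, had 225 CPM at day 21 and 111 CPM at day 7, and 139.6 and 96.0 CPM in the remaining cells. Cdkn1c, the p57 brake, had 132 CPM at day 21 and 131 CPM at day 7. Cdkn2b, the p15 brake, was lower, with 14.2 CPM at day 21 and 39.8 CPM at day 7. Cdk6, a G1 kinase, had 47.2 CPM at day 21 and 22.2 CPM at day 7, but 92.9% of its day 21 UMIs lay in Schwann-marker cells. Remaining cells had Cdk6 at 4.76 CPM, from 3 UMIs, and 17.3 CPM, the opposite order.

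Across the class 8391 genes reached a mean of 10 CPM, of which 517 (6.16%) were over 2-fold higher at day 21 and 256 (3.05%) over 2-fold lower. In the remaining cells 8182 genes were tested, with 599 (7.32%) higher and 353 (4.31%) lower, 11.6% in all. Non-dividing cells gave 432 higher (5.41%) and 239 lower (2.99%) of 7981, 8.41% in all. The lists shared 235 higher genes, 45.5% of those of the whole class and 39.2% of those of the remaining cells. They shared 171 lower genes, 66.8% and 48.4%. Of the 517 higher genes, 138 (26.7%) had over 80% of their day 21 UMIs in Schwann-marker cells, against 199 (2.37%) of all genes tested. The genes named below are therefore given in the remaining cells as well.

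The 12 genes with the largest ratios at day 21, with marker lists of other cell types set aside, fell in 3 patterns. Myoc, which encodes the secreted glycoprotein myocilin (chr1:162639155-162649693), led with 156 CPM at day 21 and 0.966 CPM at day 7, from 231 and 5 UMIs. It was found in 29.4% of cells at day 21 and 1.46% at day 7. Remaining cells had Myoc at 227 CPM at day 21 and 1.39 CPM at day 7, and among non-dividing cells it had 430 and 39.1 CPM. Adamtsl3, a matrix protein of the ADAMTS-like family (chr7:82335694-82614450), had 54.0 CPM at day 21 and 2.90 CPM at day 7, and 102 and 4.17 CPM in the remaining cells. Itgb4, the laminin-binding integrin chain of perineurial and Schwann cells (chr11:115974709-116008412), had 138 CPM at day 21 and 17.2 CPM at day 7, and 162 and 15.9 CPM in the remaining cells.

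A second pattern was made of genes whose day 21 UMIs lay mostly in Schwann-marker cells. Kcna1, a potassium channel gene, had 150.5 CPM at day 21 and 15.3 CPM at day 7, with 99.6% of its day 21 UMIs in those cells, and 1.59 and 1.39 CPM in the remaining cells. Epha5, an ephrin receptor gene, had 56.0 and 6.38 CPM in the class, with 100% of its day 21 UMIs there. Gjc3, the connexin 29 gene of myelinating glia, had 79.6 and 10.6 CPM, and Gatm, an enzyme of creatine synthesis, had 368 and 56.8 CPM, with 97.5% and 97.8% there. Cadm1, an adhesion gene, Ednrb, Art3 and Nkd1, a Wnt inhibitor, had between 87.1% and 97.9% there. Art3 was listed at 0 UMIs in the remaining cells of day 21 and at 17 UMIs, or 4.73 CPM, in those of day 7. The last gene, Srgn, encodes a proteoglycan of secretory granules and had 146 CPM at day 21 and 21.8 CPM at day 7, with 80.1% of its day 21 UMIs in 1 cell.

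**Figure D4:**
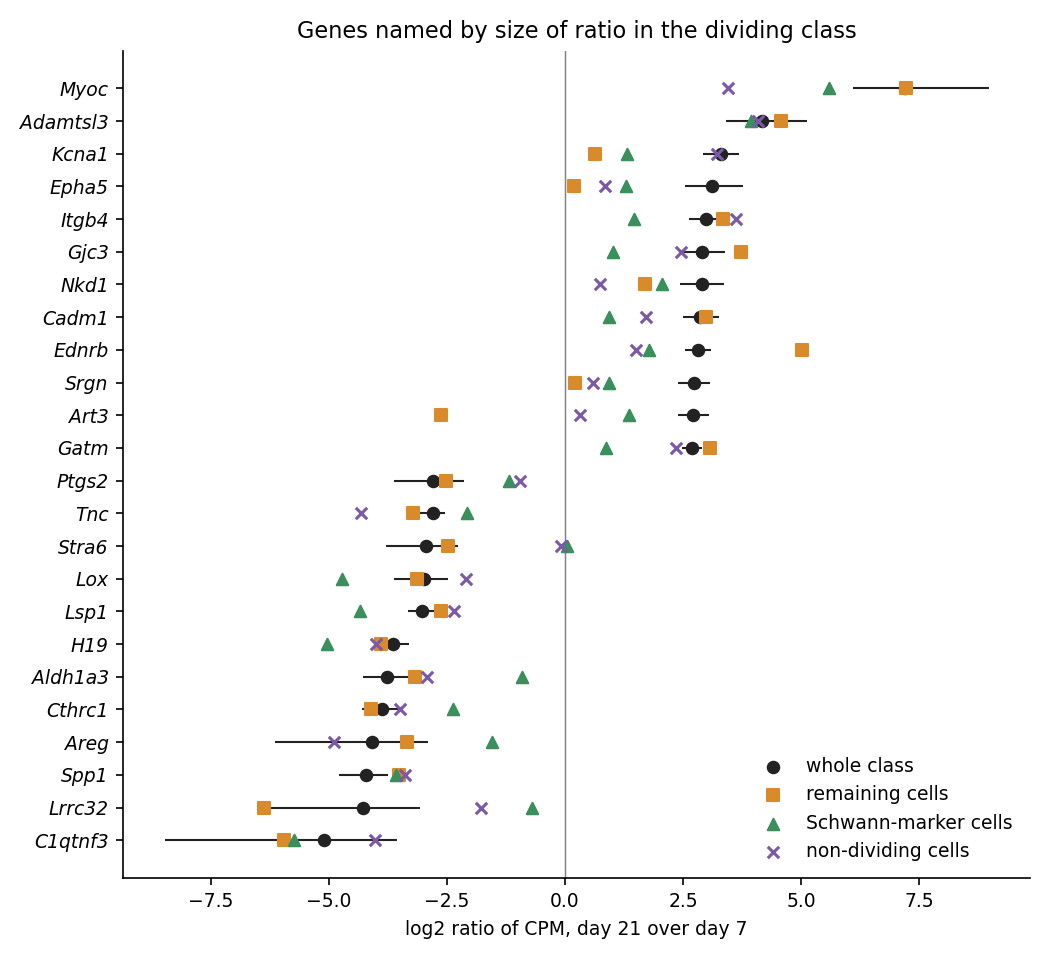
Log2 ratios of CPM, day 21 over day 7, for the 12 highest and 12 lowest genes of the dividing class, in the whole class (circles, with 95% counting intervals), in remaining cells (squares), in Schwann-marker cells (triangles) and in non-dividing cells (crosses). Art3 stands at 2.71 in the whole class and -2.62 in the remaining cells, the second value resting on 0 UMIs at day 21 with 0.5 counts added, while the 12 lower genes stay below 0 in the remaining cells.

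The 12 genes with the lowest ratios at day 21 had lower levels in the remaining cells too, and 5 of them, Cthrc1, Tnc, C1qtnf3, Areg and Aldh1a3, were on the injury list. Cthrc1, a secreted protein of activated fibroblasts (chr15:39076932-39087121), had 35.1 CPM at day 21 and 516 CPM at day 7, a log2 ratio of -3.86 (-4.30 to -3.48), and 31.7 and 561 CPM in the remaining cells. Tnc, the matrix protein tenascin C (chr4:63959785-64047015), had 81.6 CPM at day 21 and 566 CPM at day 7, and 63.5 and 599.95 CPM in the remaining cells. Spp1, the gene of osteopontin (chr5:104435118-104441050), had 22.9 and 433 CPM in the class. C1qtnf3, a secreted C1q and TNF related protein, had 2 UMIs at day 21 and 300 at day 7, or 1.35 and 58.0 CPM. Areg, the growth factor amphiregulin, had 2.70 CPM at day 21 and 51.8 CPM at day 7.

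Lrrc32, which holds latent TGF-beta at the cell surface (chr7:98489283-98502181), had 2.70 CPM at day 21 and 58.4 CPM at day 7, and was found in 3.36% and 52.9% of cells. Remaining cells had 0 UMIs of it at day 21 and 235 at day 7, at least 13.7-fold lower with 3 counts set as the floor of the summed library. Among non-dividing cells Lrrc32 had 17.2 CPM at day 21 and 59.0 CPM at day 7. Aldh1a3, an enzyme that makes retinoic acid, had 27.0 and 372 CPM, and Stra6, a retinol transporter, had 10.8 and 84.8 CPM. Stra6 had a log2 ratio of -2.93 in the dividing class and -0.08 in non-dividing cells. H19, an imprinted long non-coding RNA (chr7:142575529-142578143), had 43.9 CPM at day 21 and 549 CPM at day 7. Lox, the collagen cross-linking oxidase, Lsp1, an actin-binding gene, and Ptgs2, the prostaglandin enzyme COX-2, had log2 ratios of -2.99, -3.02 and -2.79.

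The injury list of 12 genes had a median log2 ratio of -2.37, with 10 over 2-fold lower at day 21, where 3.05% of all genes were. Like the other lists, it was chosen with earlier results of these data known, so its count beside all genes is a description only. Postn, the matrix protein periostin, had 913 CPM at day 21 and 1880.2 CPM at day 7, and Timp1, a protease inhibitor, had 115 and 444 CPM. Lrrc15 had 0 UMIs at day 21 and 164 at day 7, at least 15.7-fold lower with the same floor of 3 counts. Ptn, the growth factor pleiotrophin, had 623 CPM at day 21 and 696 CPM at day 7, with 66.3% of its day 21 UMIs in Schwann-marker cells. Remaining cells had Ptn at 389 and 754 CPM, and there the list had a median of -2.53, or -2.36 with the 2 genes at 0 set at their bounds. Non-dividing cells gave -3.21 for the same list.

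Genes of the perineurium, the barrier layer around nerve bundles, had a median log2 ratio of 1.32 in the dividing class. Of 10 perineurial markers tested, 5 were over 2-fold higher at day 21 and Gjb2 was over 2-fold lower, where 6.16% and 3.05% of all genes were, and 4 were within 2-fold. Slc2a1, the glucose transporter GLUT1 of barrier cells, had 56.7 CPM at day 21 and 17.01 CPM at day 7. Krt19, a keratin of the perineurium, had 72.9 and 22.0 CPM, and Cldn1, a tight junction protein, had 259 and 138 CPM. In the remaining cells the list had a median of 1.59, with Slc2a1 at 93.6 and 22.3 CPM and Cldn1 at 441 and 188 CPM. The median was 3.14 in non-dividing cells, 2.62 in Schwann-marker cells, with 7 of 10 over 2-fold higher, and 2.94 in mural-marker cells, with 8 of 10. Among all genes tested, 10.2% were over 2-fold higher in Schwann-marker cells and 17.4% in mural-marker cells. Summed over the list, remaining dividing cells had 1320.1 CPM at day 21 and 558 CPM at day 7, and non-dividing cells 1807 and 369 CPM. Schwann-marker cells had 381 CPM at day 21 and 87.9 CPM at day 7, and mural-marker cells 549 and 128 CPM. The median ratio was thus larger in cells with markers of other types than in the remaining cells, at lower levels, and the cause was not tested. The perineurial class was 51.8% of non-dividing cells at day 21 and 15.3% at day 7, and the part of that make-up in the non-dividing ratio was not tested.

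The genes with the largest ratios among the remaining cells were named after their values were seen. Cav1, the caveolin of membrane pits (chr6:17306335-17341452), had 476 CPM at day 21 and 44.2 CPM at day 7, a log2 ratio of 3.43 (3.15 to 3.71), and its partner Cav2 had 136 and 10.3 CPM. In the whole class Cav1 had 310 and 73.8 CPM. Lgals7, a galectin (chr7:28863853-28866284), had 390.3 CPM at day 21 and 49.0 CPM at day 7 in the remaining cells, and Sbspon, a somatomedin and thrombospondin type protein, had 344 and 52.0 CPM. Abi3bp, a matrix-binding protein, had 228 and 29.5 CPM. At the low end stood Igfbp3, a binding protein of insulin-like growth factors, with 3.17 CPM at day 21 and 107 CPM at day 7. Mfap4 and Eln, genes of elastic fibres, stood there too, with 11.1 and 195 CPM and with 7.93 and 82.1 CPM. In the whole class Mfap4 had 37.1 and 174 CPM and Eln 55.3 and 82.3 CPM. Within mural-marker cells Mfap4 had 258 and 225 CPM and Eln 385 and 98.2 CPM. Of the 12 highest and 12 lowest genes of the remaining cells, 3 and 8 were also among those of the whole class.

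Of 15 contractile genes tested 8 were over 2-fold lower at day 21, where 3.05% of all genes were, and 7 were within 2-fold. Their median log2 ratio was -1.01, and in the remaining cells it was -0.24, with 4 over 2-fold lower, where 4.31% of all genes were. Acta2, smooth muscle actin, had 130.2 CPM at day 21 and 758 CPM at day 7 in the class, with 89.1% of its day 21 UMIs in cells with mural markers, and 33.3 and 177 CPM in the remaining cells. Within the 12 mural-marker cells of day 21 and the 35 of day 7, 5 of 6 smooth muscle markers were over 2-fold lower at day 21, where 9.27% of all genes tested in those cells were lower and 17.4% higher, 26.7% in all. The deepest of those 12 cells, with 32823 UMIs, carried mast cell genes. Either the smooth muscle or the pericyte list could choose these cells, and all 12 and all 35 passed the pericyte count. The values of both lists there are a description. Of 12 imprinted growth genes 6 were over 2-fold lower in the class, where 3.05% of all genes were, among them Mest, with 93.8 CPM at day 21 and 499.6 CPM at day 7. The remaining cells also gave 6 of 12, where 4.31% of all genes were over 2-fold lower.

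Other lists had smaller medians. Interstitial matrix genes had a median of -0.48, with 6 of 23 over 2-fold lower, where 3.05% of all genes were, among them Col12a1, with 47.9 CPM at day 21 and 183 CPM at day 7. Caveolar and lipid genes had a median of 0.79, with Apoe, the lipid carrier, at 1021 CPM at day 21 and 419 CPM at day 7 and Apod at 331 and 880 CPM. Basement membrane genes had a median of 0.51, cytosolic ribosomal protein genes -0.35 and mitochondrial transcripts 0.69. Myeloid markers had a median of 2.03 over 6 genes, with 75.2% of the day 21 UMIs of Fcer1g and 96.9% of those of Cd14 in 1 cell, and a median of -0.27 in the remaining cells.

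**Figure D5:**
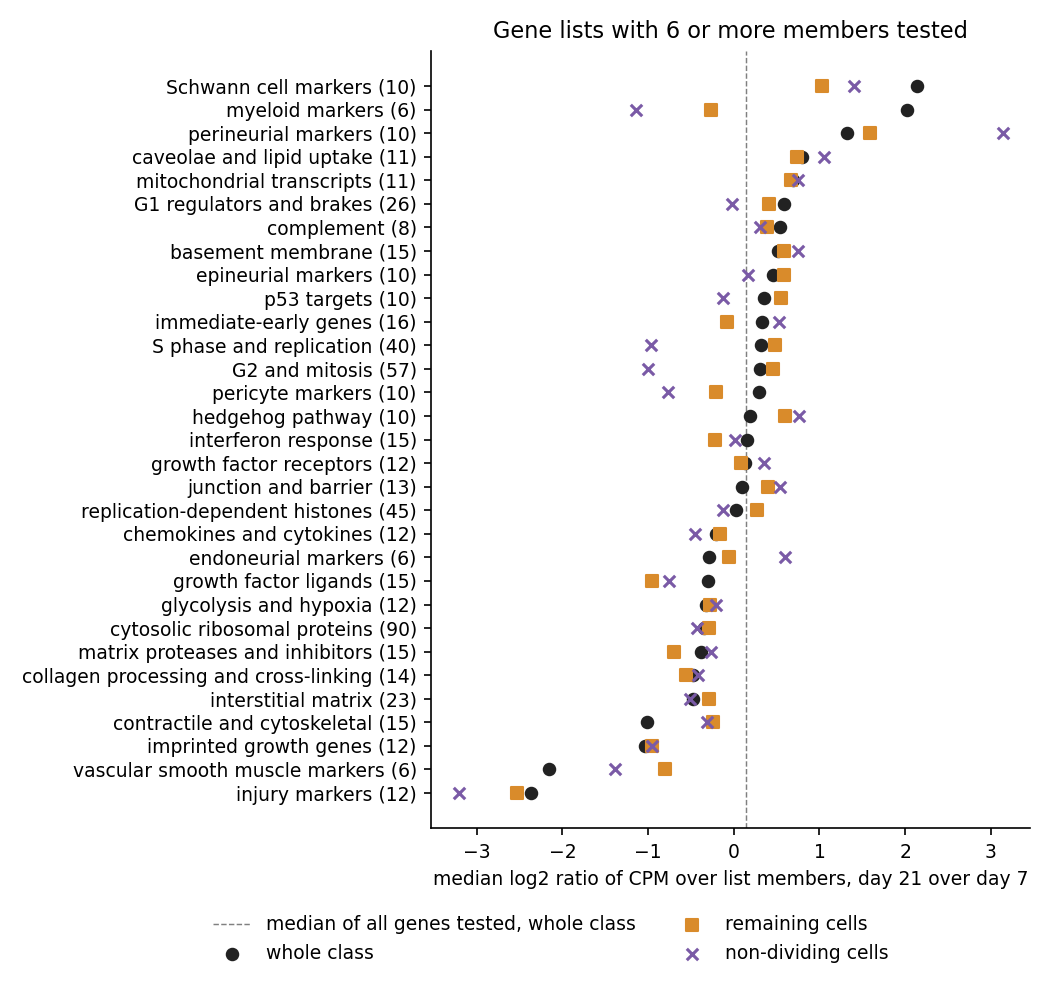
Median log2 ratio of CPM, day 21 over day 7, over the tested members (number in brackets) of each gene list, in the whole dividing class (circles), the remaining cells (squares) and non-dividing cells (crosses), with a dashed line at the median of all genes in the class (0.14). The injury list lies lowest in all 3 (-2.37, -2.53 and -3.21), and the S phase and G2 and mitosis lists lie above 0 in the dividing class and below 0 in non-dividing cells. The lists were chosen with earlier results of these data known.

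Within the Schwann-marker cells, 8058 genes were tested, with 821 (10.2%) over 2-fold higher at day 21 and 341 (4.23%) over 2-fold lower, 14.4% in all. S phase genes had a median log2 ratio of 0.61 there and G2 and mitosis genes 0.18. Immediate-early genes, which respond within minutes to a stimulus or to dissociation, had a median of 0.88, with Egr1 at 982 CPM at day 21 and 350 CPM at day 7. Interferon response genes had a median of 0.93, led by Irf1, with 303 CPM at day 21 and 33.2 CPM at day 7. Of 15 tested, 7 were over 2-fold higher and 2 lower, where 10.2% and 4.23% of all genes were. Mural-marker cells had similar medians, 0.81 for immediate-early and 0.83 for interferon genes. Remaining cells had -0.076 and -0.23, and non-dividing cells 0.52 and 0.02. Injury markers were lower in Schwann-marker cells as well, with a median of -1.81 and 7 of 12 over 2-fold lower, and Tnc had 132 CPM at day 21 and 561 CPM at day 7.

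The reporter and its driver gene were also read in the subsets. TdTomato had a UMI in 28 of 50 Schwann-marker cells at day 21 (56.0%) and in 7 of 30 at day 7 (23.3%). Thinned, the shares were 18.0% and 6.67%, against 11.9% and 12.4% of non-dividing cells. Remaining cells had a TdTomato UMI in 41.7% at day 21 and 67.9% at day 7, or 4.17% and 13.4% thinned. Mural-marker cells had one in 58.3% at day 21 and 68.6% at day 7, or 8.33% and 17.1% thinned. Pdgfrb had a UMI in 16.0% of Schwann-marker cells at day 21 and 33.3% at day 7, and in 68.8% and 62.7% of remaining cells. Thinned, the order in Schwann-marker cells was the opposite, with 3 of 50 at day 21 and 0 of 30 at day 7, which allows up to 10%, so no direction is read, and remaining cells had 16.7% and 9.70%. In mural-marker cells Pdgfrb was found in 11 of 12 at day 21 and 35 of 35 at day 7. Since non-dividing cells sorted for the reporter had a TdTomato UMI in 34.8% at day 21 and 64.0% at day 7, a cell without a UMI is not shown to lack it.

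Each dividing cell was also set against the expression profiles of the 5 non-dividing classes of its own library, with cell cycle genes left out. At day 21, 52.1% of dividing cells were nearest to the differentiating class (MES_DIFF) and 35.3% to the perineurial class (MES_PERI). At day 7 the shares were 34.0% and 54.4%. With profiles averaged over both libraries the order turned, to 25.2% and 62.2% at day 21 and to 51.0% and 33.0% at day 7. Remaining cells were nearest to MES_DIFF in 50.0% at day 21 and 36.6% at day 7 with their own library's profiles, and in 31.2% and 49.3% with averaged ones. The difference between the days in nearest class therefore depends on the profiles used. With their own library's profiles, 81.9% of non-dividing MES_DIFF cells of day 21 and 96.7% of MES_PERI cells of day 7 were placed in their own class. With averaged profiles 56.3% and 74.7% were. Cells nearest to the epineurial class were 6.72% at day 21 and 5.83% at day 7.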

How the data were processed

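Members and gene lists were chosen with earlier results of these data known. The deposited matrices hold UMI counts per gene and barcode, from Cell Ranger 6.1.2 per the file headers. Cell Ranger 3.0.2, Seurat 4.0.1, mm10 and GRCm38 also stand in the submitters' processing notes. The authors' cell filters are not given in the sources used here, and classes are those of the deposited cell metadata. That table lists 4112 cells at day 21, of which 4111 were found among the barcodes. UMI counts were summed over cells and scaled to CPM of those cells, and log2 ratios were formed with 0.5 counts added to each sum. Genes with a mean of at least 10 CPM over the libraries were tested against a 2-fold limit. Intervals are exact binomial (ratios, conditional on the sum), Clopper-Pearson (shares) and Poisson (sums). A count of 0 was given 3 as its limit, for cells and for UMIs alike. A cell carried a marker list if at least 4 of its genes had a UMI. Lists numbered 34, and 2 symbols (Itgam and Leprel1) were not used.

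Named genes were the 12 largest ratios in each direction reaching 50 CPM in the higher library and seen in 10% or more of its cells, without transgenes, Xist, Tsix, haemoglobin, mitochondrial, ribosomal, Y-linked or numbered-clone features and without the marker lists of other cell types, plus up to 5 members per list with at least 20 CPM. The text names a selection of these. No doublet caller was run, and an alternative leaves out cells over 2 times the median UMIs. A trimmed-mean (TMM) factor came from edgeR 4.0.16, and other steps used Python 3.11.15, numpy 2.4.6 and scipy 1.17.1. Gene positions are from GENCODE M21 (GRCm38), where 648 of 721 identifiers carried the same version. The ratio step was checked on simulated counts. Alternatives comprised other scalings, thinning, filters, marker minimums and cells left out.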

Additional observations from a re-analysis of the deposited data

How the results depend on the processing

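No paired analysis was possible because each group was 1 library. Each alternative changed 1 choice. Leaving out the Schwann-marker cells alone and asking for at least 6 markers were chosen after seeing the data. Genes over 2-fold higher and lower at day 21 numbered 1215 and 615 with every cell thinned to 2000 UMIs, 1559 and 1322 with every gene of more than 3 counts, and 131 and 96 with a mean of at least 50 CPM; 412 were lower without cells carrying markers of other types. Scaling by trimmed mean and by median of ratios set the median log2 ratio of S phase genes to 0.13 and 0.19, of G2 and mitosis genes to 0.12 and 0.17, of histones to -0.16 and -0.11, and of ribosomal proteins to -0.53 and -0.48. Without cells carrying markers of other types the medians were 0.48 for S phase, 0.46 for G2 and mitosis, 0.27 for histones, -0.29 for ribosomal proteins, 1.03 for Schwann, 0.18 for endothelial, -0.27 for myeloid, -0.076 for immediate-early and -0.23 for interferon genes. Without the Schwann-marker cells alone they were 0.23 for G2 and mitosis, 0.24 for G1, 0.53 for Schwann and -0.30 for ribosomal protein genes. Myeloid markers had a median of -0.55 when thinned. Ribosomal proteins had -0.39 with cells weighted alike and -0.40 without cells over 2 times the median UMIs, where histones had -0.12. The cause of these shifts was not tested.

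Without cells carrying markers of other types the log2 ratio turned to -2.62 for Art3, -1.65 for Cdk6, -1.19 for Erbb3, -1.40 for Rgs4, 0.93 for Mylk, -1.74 for Cd14, 0.47 for Tnmd and -1.58 for Hist3h2ba. Without the Schwann-marker cells alone it turned to -1.32 for Cdk6, -1.63 for Erbb3 and -1.79 for Hist3h2ba. Thinning turned Loxl3 to 0.45 and Col4a5 to -0.35. For these genes the cause was not tested; Art3, Erbb3 and Cd14 had 0 UMIs in the remaining cells of day 21. No other of the 176 genes tracked had a ratio over 2-fold that changed sign under these alternatives.

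Over all barcodes the dividing share was 1.56% at day 21 and 4.22% at day 7. Thinned, cells with Schwann markers were 25.2% and 8.25%, and cells with pericyte markers 8.40% and 9.71%; with at least 3 markers the pericyte share was 26.7% at day 7. At full depth Mki67 and Top2a were found in 75.6% and 75.6% of cells at day 21 and in 85.0% and 84.5% at day 7. With averaged profiles the nearest class was MES_PERI in 62.2% and MES_DIFF in 25.2% at day 21, against 33.0% and 51.0% at day 7, where MES_ENDO took 5.34%.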

Other observations

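The deepest dividing cell of day 21, with 32823 UMIs and mural markers, held all the day 21 UMIs of 4 mast cell genes. These were 1088 of Cma1, 916 of Mcpt4, 538 of Tpsb2 and 410 of Cpa3, all proteases of mast cell granules. It also held 91 of the 121 UMIs of Fcer1g, a chain of the IgE receptor, and it had 9 UMIs of Mki67 and 10 of Top2a.

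The 7 dividing cells of intact nerve had a median of 13948 UMIs and none (0) with at least 4 Schwann markers, which allows a share of up to 42.9%. They enter no comparison.

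These values describe 1 library a day. Differences between mice, sorts and runs cannot be told apart from the day. Subsets of 12, 8 and 2 cells give wide intervals. The deeper day 7 library shows low genes more often, which is why shares were also read after thinning.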
